A study of Homo sapiens with 10 samples.

Results

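The histone acetylation marks H3K27ac, H3K9ac and H4K16ac were set against each other after 2 days of doxycycline in immortalized human astrocytes (IHA). Every island listed on chromosomes 1 to 22 for these 3 samples was used. There were 58368 H3K27ac islands, 107516 H3K9ac islands and 92570 H4K16ac islands, in all 258454 of the 778774 islands in the 9 lists of the series, and 3 of its 10 samples. An island is a stretch of the genome where the authors' caller found more reads with the antibody than with the control.

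IHA are fetal astrocytes immortalised with SV40 and sold as a line. The line carries IDH1-R132H, a glioma form of isocitrate dehydrogenase that makes 2-hydroxyglutarate, under control of doxycycline at 1 µg/ml. In CUT&RUN a nuclease tethered to an antibody cuts out the DNA round the antibody's target, and the fragments are sequenced; each reaction took 200000 cells. The groups used were cells without doxycycline, labelled with wild-type IDH1, and cells induced for 2 days or for 7 days, labelled IDH1-R132H. There was 1 library per mark and time. Anti-rabbit HRP (a secondary antibody with no histone target) on cells without doxycycline was the 1 control for every list. Cells given doxycycline without the mutant gene were not analysed here, so doxycycline and the mutant enzyme cannot be told apart. The label astrocyte was not checked against marker genes, because the lists hold positions on hg19 and no genes. Loci are therefore named by position and by Giemsa band, the stripes of a stained chromosome.

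Acetyl groups take away the positive charge of lysines in histone tails and are bound by bromodomain proteins. H3K27ac is laid down mainly by the enzymes CBP and EP300 and is known from active promoters and enhancers. H3K9ac, laid down mainly by GCN5 and PCAF, is known from active promoters. H4K16ac, laid down by MOF, loosens the folding of the chromatin fibre and also extends into the bodies of active genes.

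The libraries were of like depth. Relative to the HRP library, their sizes were 3.15 for H3K27ac, 4.17 for H3K9ac and 3.08 for H4K16ac, at most 1.35-fold apart. The lowest number of antibody reads in an island was 14 in each list. With 1 library per mark no test between marks was possible, and no replicate spread stands behind any difference below. Intervals are exact Clopper-Pearson intervals at 95% for shares and order-statistic intervals at 95% for medians. They cover the counting of islands only, as if each island were an independent draw, which neighbouring islands need not be. They hold no spread between libraries. Amplified reads can also repeat a molecule, and no identifiers tell copies apart.

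Regions with all 3 marks were a minority by number and held the largest part of the marked sequence. Islands of the 3 lists that touched were merged into 129804 regions over 596 Mb, which is 20.7% of chromosomes 1 to 22. Of these, 25000 (19.3%) held all 3 marks, and these spanned 230 Mb (38.6% of the regions' length). They held 66.4% of the island reads of H3K27ac, 52.2% of those of H3K9ac and 41.3% of those of H4K16ac. Regions of 1 mark numbered 10174 for H3K27ac, 22705 for H3K9ac and 30662 for H4K16ac. H4K16ac alone was thus the most frequent of the 7 combinations, yet those regions spanned only 88.3 Mb. With islands at least 4-fold over HRP, H3K9ac alone was the most frequent, at 17925 regions, against 15363 for H3K27ac alone and 16763 for H4K16ac alone.

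Of the pairs, those with H3K9ac were the common ones. H3K27ac with H3K9ac and no H4K16ac was found in 16264 regions, and H3K9ac with H4K16ac and no H3K27ac in 22629. H3K27ac with H4K16ac and no H3K9ac was the rarest combination, at 2370 regions or 1.83%.

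**Figure D1:**
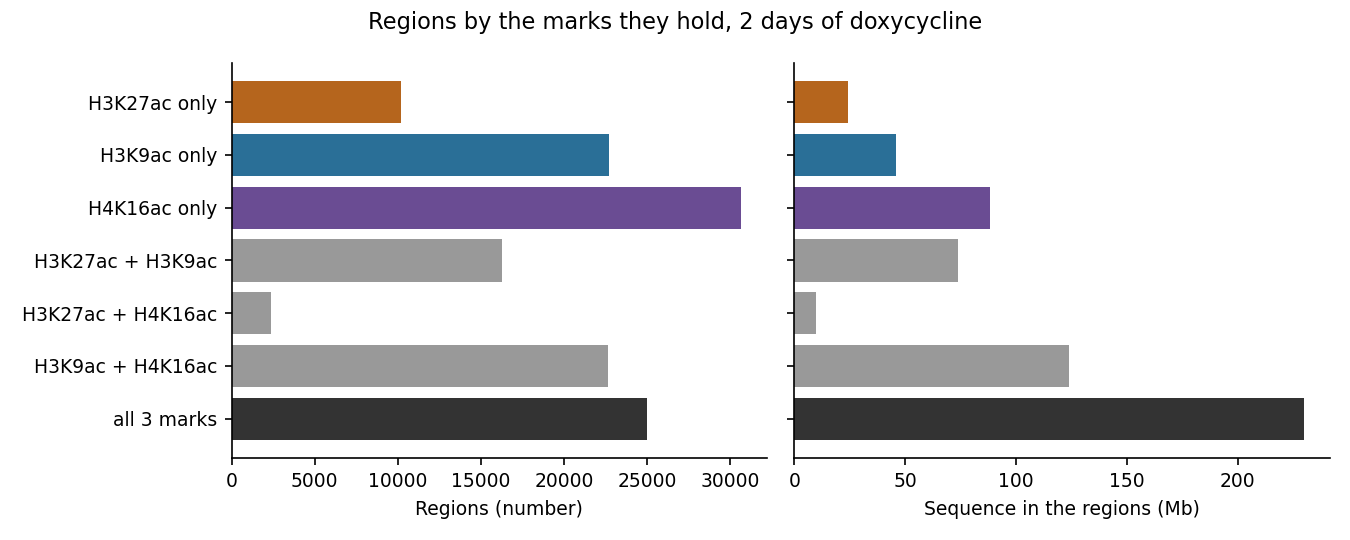
Regions made from touching islands of the 3 marks at 2 days, by the marks they hold; bars give the number of regions (left) and their summed length in Mb (right). H4K16ac alone has the longest bar by number (30662), regions with all 3 marks have it by length (230 Mb), and H3K27ac with H4K16ac alone has the shortest in both panels.

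Overlap depended on which mark it was counted from. Of the H3K27ac islands, 77.0% (76.6 to 77.3%) overlapped an H3K9ac island by at least 1 bp, against 49.9% (49.6 to 50.2%) of the H3K9ac islands that overlapped H3K27ac. H3K27ac islands overlapped H4K16ac in 51.6% of cases (51.1 to 52.0%), and H4K16ac islands overlapped H3K27ac in 36.7% (36.4 to 37.1%). H3K9ac and H4K16ac were closer to even: 56.8% of H3K9ac islands (56.5 to 57.1%) overlapped H4K16ac, and 62.7% of H4K16ac islands (62.4 to 63.0%) overlapped H3K9ac. The H3K27ac islands that overlapped H3K9ac held 91.5% of all H3K27ac island reads.

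Counted in bases, every pair overlapped more than the other mark's cover of the chromosomes. H3K9ac lay on 58.5% of the bases in H3K27ac islands, while it covered 11.3% of chromosomes 1 to 22, which makes 5.18 times its cover. H4K16ac lay on 32.8% of the bases in H3K27ac islands, against a cover of 11.5%, or 2.84 times. H4K16ac lay on 44.7% of the bases in H3K9ac islands, or 3.87 times its cover. By this measure the pair H3K27ac and H3K9ac was the closest and the pair H3K27ac and H4K16ac the loosest. By number of islands, more H3K9ac islands overlapped H4K16ac (56.8%) than H3K27ac (49.9%). By bases the order was the other way, with H3K27ac on 45.4% of the bases in H3K9ac islands.

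These shares depended on the lists' lengths and limits. With the 58368 islands of smallest p from each list, 53.0% of H3K27ac islands overlapped H3K9ac and 58.2% of H3K9ac islands overlapped H3K27ac, so the direction turned. Among islands at least 4-fold over HRP, the first share was 49.0%, and 26.3% of H3K27ac islands overlapped H4K16ac.

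Regions with all 3 marks were long, and the marks seldom filled them together. Their median length was 7200 bp (quartiles 4800 and 11200 bp), against 2000 bp for regions of H3K27ac alone, 1800 bp for H3K9ac alone and 2600 bp for H4K16ac alone. A stretch lying under all 3 marks at once was present in 23282 of the 25000 (93.1%). That stretch had a median of 1800 bp and took a median of 28% of the region. In bases, all 3 marks coincided on 61.0 Mb (10.2% of the covered sequence), while H3K27ac lay alone on 83.0 Mb, H3K9ac alone on 93.2 Mb and H4K16ac alone on 165 Mb.

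Within those regions H3K27ac was the most continuous mark. It covered a median of 74.1% of the region, against 68.6% for H3K9ac and 61.9% for H4K16ac. It was broken into several islands in 13.7% of the regions, H3K9ac in 37.0% and H4K16ac in 27.2%. It also had the most reads per kb of the 3 marks, scaled by library size, in 80.5% of them. In the 13012 regions with exactly 1 island of each mark, the median island lengths were 3400 bp for H3K27ac, 3000 bp for H3K9ac and 2800 bp for H4K16ac.

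Long regions held more marks. Of the 10483 regions over 10 kb, 72.6% held all 3 marks, 0.086% held H3K27ac alone, none H3K9ac alone and 0.782% H4K16ac alone. Of the 6554 regions of up to 1 kb, 0.092% held all 3, and 54.9% were H3K9ac alone. A longer region has more room for another mark's island, and that effect was not separated here.

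H3K27ac islands were the fewest and the widest. Their median length was 3200 bp (quartiles 2000 and 5200 bp), against 2400 bp (1600 and 3800 bp) for H3K9ac and 3000 bp (2000 and 4400 bp) for H4K16ac. The upper tail differed more than the medians. Islands of at least 20 kb numbered 602 for H3K27ac, 87 for H3K9ac and 180 for H4K16ac, and held 6.90%, 0.668% and 1.32% of each list's bases in that order. H3K27ac covered 253 Mb (8.77% of chromosomes 1 to 22), H3K9ac 326 Mb (11.3%) and H4K16ac 333 Mb (11.5%).

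The widest islands show how differently the marks can fill 1 place. The widest H3K27ac island, at chr7:130550201-130653800 in 7q32.3, was 103600 bp long with 6954 reads, and H3K9ac covered 56.0% of it but H4K16ac only 4.05%. The next, at chr2:36643601-36732800 in 2p22.2, was 89200 bp long with 6082 reads, and H3K9ac covered 81.8% of it and H4K16ac 73.1%. The third, at chr11:128316401-128401000 in 11q24.3, was 84600 bp long with 5182 reads, of which H3K9ac covered 75.4% and H4K16ac 8.27%. H4K16ac therefore filled most of 1 of these 3 islands and little of the other two.

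The widest H3K9ac islands were shorter. At chr15:93423201-93475600 in 15q26.1, 52400 bp of H3K9ac were covered to 100% by H3K27ac and to 54.2% by H4K16ac. The next widest, at chr17:5307201-5350600 in 17p13.2 and at chr17:8343001-8384400 in 17p13.1, were covered by H3K27ac to 76.5% and 29.0%. For H4K16ac the widest were 43200 bp at chr1:19442401-19485600 in 1p36.13, 42200 bp at chr17:10592601-10634800 in 17p13.1 and 40000 bp at chr17:3952801-3992800 in 17p13.2. H3K9ac covered 67.1%, 91.5% and 87.5% of these, and H3K27ac covered 46.8%, 44.5% and 14.5%. Of these 6 islands 4 lay on the short arm of chromosome 17, where islands of all 3 marks also held the most HRP control reads per kb of any arm.

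Scaled by library size, H3K27ac islands held more reads per kb, and varied more, than those of the other marks. Reads were divided by relative library size and by the island's length in kb. The median of these scaled reads per kb was 8.90 for H3K27ac (8.83 to 8.94), 5.39 for H3K9ac and 5.22 for H4K16ac (5.22 to 5.23). The 5th and 95th percentiles were 4.43 and 20.4 for H3K27ac, 3.74 and 9.63 for H3K9ac and 3.83 and 7.92 for H4K16ac. The 95th percentile was thus 4.60 times the 5th for H3K27ac, 2.57 times for H3K9ac and 2.07 times for H4K16ac. Scaled by each list's summed island reads instead, the order of the medians turned, to 6.49 for H3K27ac, 6.22 for H3K9ac and 6.51 for H4K16ac. HRP reads per kb of island were 2.13 for H3K27ac, 1.90 for H3K9ac and 1.89 for H4K16ac.

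**Figure D2:**
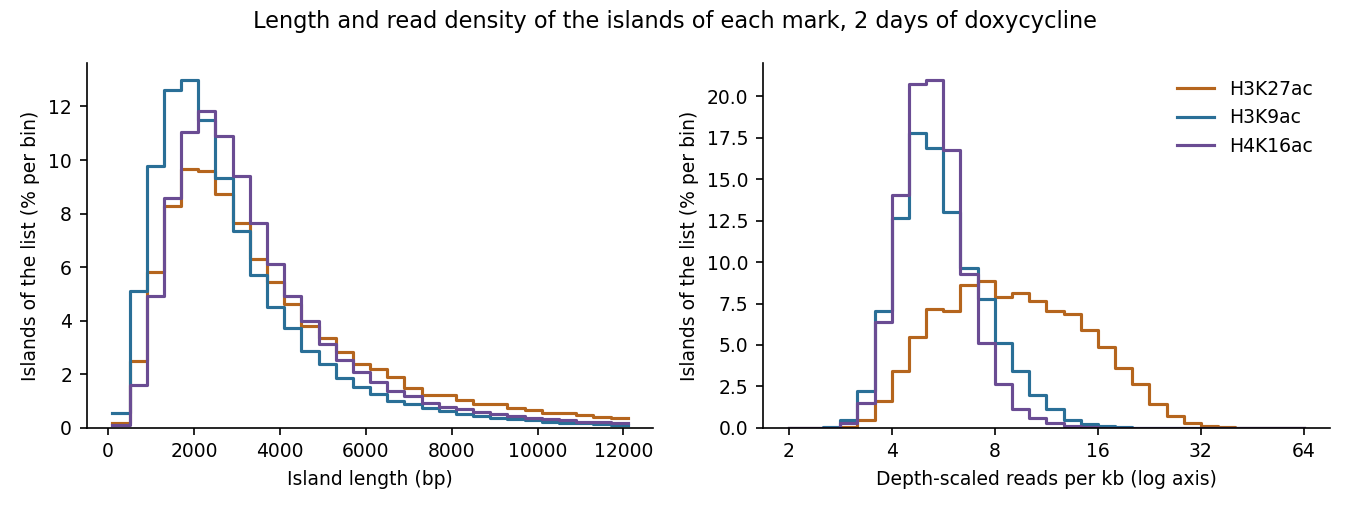
Island length in bp (left; islands over 12 kb are not drawn) and scaled reads per kb on a log axis (right) for the islands of each mark at 2 days; the vertical axes give the percent of that mark's islands in each bin. H3K9ac has the largest share of islands under 2 kb, and the H3K27ac density curve is the broadest, with a median of 8.90 against 5.39 for H3K9ac and 5.22 for H4K16ac.

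Past 2 kb, longer H3K27ac islands were denser. Islands of H3K27ac over 10 kb had a median of 14.5 scaled reads per kb, and those over 2 to 4 kb had 7.39. In H3K9ac the same length classes had 6.35 and 4.88, and in H4K16ac 5.48 and 4.86. Islands of up to 1 kb had high densities in every list (9.93, 7.67 and 8.75 for H3K27ac, H3K9ac and H4K16ac). No island was listed below 14 reads, and the part of that limit in these densities was not tested.

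Where 2 marks shared a region, H3K27ac was usually the denser. Over the 41264 regions with both, the median log2 ratio of H3K27ac over H3K9ac was 0.67 (0.67 to 0.68), and 29.3% of regions had at least 2-fold more H3K27ac per kb while 0.223% had at least 2-fold less. Over the 27370 regions with H3K27ac and H4K16ac, the median log2 ratio was 0.83 (0.82 to 0.84), with 42.1% at least 2-fold higher and 0.208% at least 2-fold lower in H3K27ac. H3K9ac and H4K16ac were near parity over 47629 regions: the median log2 ratio was 0.02 (0.01 to 0.02), with 2.44% at least 2-fold higher and 0.718% at least 2-fold lower in H3K9ac. The lead of H3K27ac rested on the scaling: divided by each list's own summed island reads, the 3 medians were 0.01, 0.06 and -0.09.

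In reads per kb, H3K27ac and H3K9ac ran together across shared regions, and H4K16ac followed neither closely. Over the 25000 regions with all 3 marks, Spearman's rho between densities was 0.60 for H3K27ac and H3K9ac, 0.08 for H3K27ac and H4K16ac and 0.13 for H3K9ac and H4K16ac. Between summed scaled reads of the same regions rho was 0.66, 0.15 and 0.49 in that order. By that measure H4K16ac ran closer to H3K9ac. The regions are not independent samples and share the HRP control, so these are descriptions. H4K16ac density had the narrowest range in these regions, with quartiles of 4.74 and 6.10. Those of H3K27ac were 6.64 and 14.5, and those of H3K9ac 5.15 and 7.37. The part of this narrow range in rho was not tested. Summed reads also grow with the length of a region, and that effect was not separated. Split into 4 equal groups by H3K27ac density, the regions had median H3K27ac densities of 5.30, 8.21, 12.1 and 17.8 scaled reads per kb. H3K9ac followed with 5.11, 5.62, 6.44 and 7.62, while H4K16ac had 5.33, 5.27, 5.34 and 5.49.

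H4K16ac density was also the closest between lone and shared islands. H4K16ac islands that overlapped both other marks had a median of 5.40 scaled reads per kb, and those that overlapped none had 5.02. For H3K27ac the same medians were 9.74 and 7.41, and for H3K9ac 6.08 and 4.88. H3K9ac islands that overlapped H4K16ac but no H3K27ac had 4.89, the value of H3K9ac islands alone, whereas those with H3K27ac but no H4K16ac had 6.19.

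The share of islands with no other mark also differed by density. In the densest 10% of H3K27ac islands 3.12% overlapped no other mark, against 20.3% in the least dense 10%. For H3K9ac the shares were 8.43% and 39.5%, and for H4K16ac 28.8% and 46.8%. H4K16ac thus kept many lone islands even among its densest, which were short, with a median length of 1200 bp. In the densest 10% of H3K9ac islands 86.1% overlapped H3K27ac, and in the least dense 19.4% did; overlap with H4K16ac was 51.5% and 50.3% in the same groups.

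**Figure D3:**
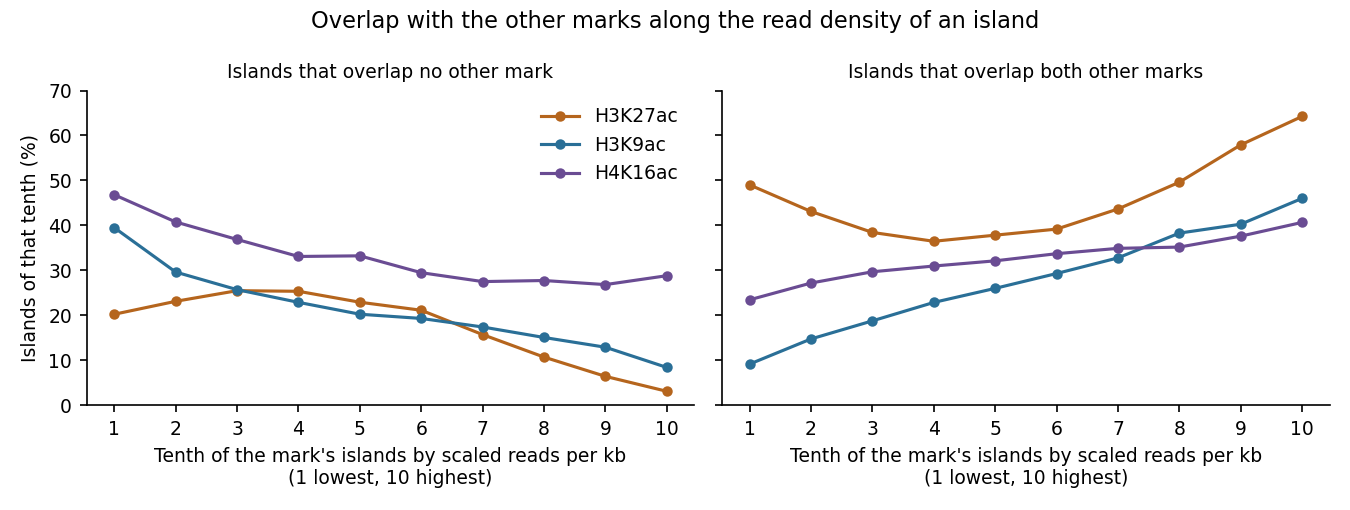
Islands of each mark in 10 equal groups by scaled reads per kb (horizontal axis, 1 lowest to 10 highest) and the percent of each group that overlaps no other mark (left) or both other marks (right). The share with no other mark is 3.12% for H3K27ac, 8.43% for H3K9ac and 28.8% for H4K16ac in the highest group.

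Some regions had a large ratio between marks. Each mark's reads per kb were taken over its own islands, which can differ in length within a region. Of the 27010 regions with at least 50 reads of both H3K27ac and H3K9ac, the largest log2 ratio of H3K27ac over H3K9ac was 2.82 at chr10:11726601-11732600 in 10p14, with 210 H3K27ac reads on 1800 bp and 83 H3K9ac reads on 3800 bp. The next were 2.65 at chr9:6560601-6568600 in 9p24.1 and 2.53 at chr2:85184201-85187800 in 2p11.2, and the 5 largest lay in 2.51 to 2.82. In the other direction the 5 lowest ratios lay between -1.05 and -1.03, the lowest at chr11:63771601-63776000 in 11q13.1, with 72 reads of each mark on 4400 bp of H3K27ac and 1600 bp of H3K9ac. By summed scaled reads those 5 had log2 ratios between -0.16 and 0.51, with 0.41 at the one in 11q13.1. In reads per kb the 2 directions were unequal in reach, as the medians already were.

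H3K27ac over H4K16ac reached further. Among 13327 regions with 50 reads of both, the largest log2 ratio was 3.19 at chr17:4869401-4883200 in 17p13.2, with 928 H3K27ac reads on 5600 bp, the densest H3K27ac island of the list at 52.7 scaled reads per kb, and 232 H4K16ac reads on 13000 bp. At chr17:2293001-2311400 in 17p13.3 the ratio was 2.95, with 2604 H3K27ac reads on 17600 bp and 90 H4K16ac reads on 4800 bp. The lowest ratio was -1.25 at chr17:8419801-8453000 in 17p13.1. There 1 H4K16ac island of 33200 bp held 975 reads, and 2 H3K27ac islands held 68 reads on 5400 bp, so this is a broad H4K16ac domain with little H3K27ac; 4 H3K9ac islands held 772 reads on 28000 bp.

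Between H3K9ac and H4K16ac the extremes were smaller. Among 23085 regions the largest log2 ratio of H3K9ac over H4K16ac was 1.89 at chr17:16113001-16123200 in 17p11.2, with 365 H3K9ac reads on 4400 bp and 109 H4K16ac reads on 6600 bp. The lowest was -1.33 at chr9:127665201-127671200 in 9q33.3, with 101 H3K9ac reads on 6000 bp and 69 H4K16ac reads on 2200 bp. By summed scaled reads the log2 ratio there was 0.11. All 5 of the regions highest in H3K9ac held H3K27ac too, and of the 5 lowest only the one at chr14:75237401-75245000 in 14q24.3 did.

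The strongest regions with all 3 marks were named by the scaled reads of their weakest mark. The first, at chr2:36571201-36732800 in 2p22.2, held 11895 H3K27ac reads, 4783 H3K9ac reads and 1915 H4K16ac reads, and includes the second widest H3K27ac island. The next 3 all lay on the short arm of chromosome 17, at chr17:16987801-17061400 in 17p11.2 and at chr17:8328801-8407800 and chr17:7752001-7799400 in 17p13.1. The fifth, at chr15:93422001-93488200 in 15q26.1, held 3454 H3K27ac reads, 1930 H3K9ac reads and 877 H4K16ac reads. H4K16ac was the weakest mark in each but the one at chr17:8328801-8407800, where it was H3K27ac. In the order named, the H3K9ac islands of these 5 regions held 519, 190, 245, 178 and 122 HRP reads. Those islands spanned 136000, 66200, 73800, 45000 and 62000 bp. The whole H3K9ac list had 1.90 HRP reads per kb. The part of the control reads in this ranking was not tested.

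Islands of 1 mark only were many, short and mostly weak. They made up 17.4% of H3K27ac islands (17.1 to 17.7%), 21.1% of H3K9ac islands (20.9 to 21.4%) and 33.1% of H4K16ac islands (32.8 to 33.4%), but held 6.37%, 11.6% and 25.1% of the island reads in that order. At least 50 reads were held by 4208 of the H3K27ac-only islands (41.4%), 4481 of the H3K9ac-only (19.7%) and 8081 of the H4K16ac-only (26.4%), against 74.2%, 60.2% and 50.5% of the islands that overlapped another mark. At the limit itself, 116, 293 and 428 single-mark islands held exactly 50 reads, and 132, 332 and 424 held 49. With 58368 islands per list the counts of at least 50 reads were 12116, 2514 and 8905, so the order of the marks depends on how many islands are listed.

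Many single-mark islands lay close to another mark. The median gap to the nearest island of another mark was 4000 bp for H3K27ac-only islands, 3000 bp for H3K9ac-only and 4000 bp for H4K16ac-only. No island of another mark lay within 5 kb of 44.5%, 35.4% and 44.5% of them. HRP control reads per kb were 2.36 in H3K27ac-only islands against 2.11 in shared ones, 1.58 against 1.95 for H3K9ac and 1.82 against 1.91 for H4K16ac; their part in the calls was not tested.

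The lists of the other times were not used to choose these islands. H3K27ac-only islands overlapped an H3K27ac island without doxycycline in 73.5% of cases (72.7 to 74.4%) and at 7 days in 57.8% (56.8 to 58.7%), against 89.5% and 79.1% of the H3K27ac islands shared with another mark. H3K9ac-only islands overlapped H3K9ac without doxycycline in 28.9% and at 7 days in 35.6%, against 72.3% and 78.9% of the shared. H4K16ac-only islands did so in 39.7% and 66.2%, against 69.7% and 86.7%. Single-mark islands were thus found again less often than shared ones for every mark and time, and H3K9ac-only islands least. The same mark's list covered 7.57 to 10.5% of chromosomes 1 to 22 for H3K27ac, 10.8 to 12.9% for H3K9ac and 9.54 to 20.3% for H4K16ac at those times, so the high share of H4K16ac at 7 days stands beside the widest list.

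**Figure D4:**
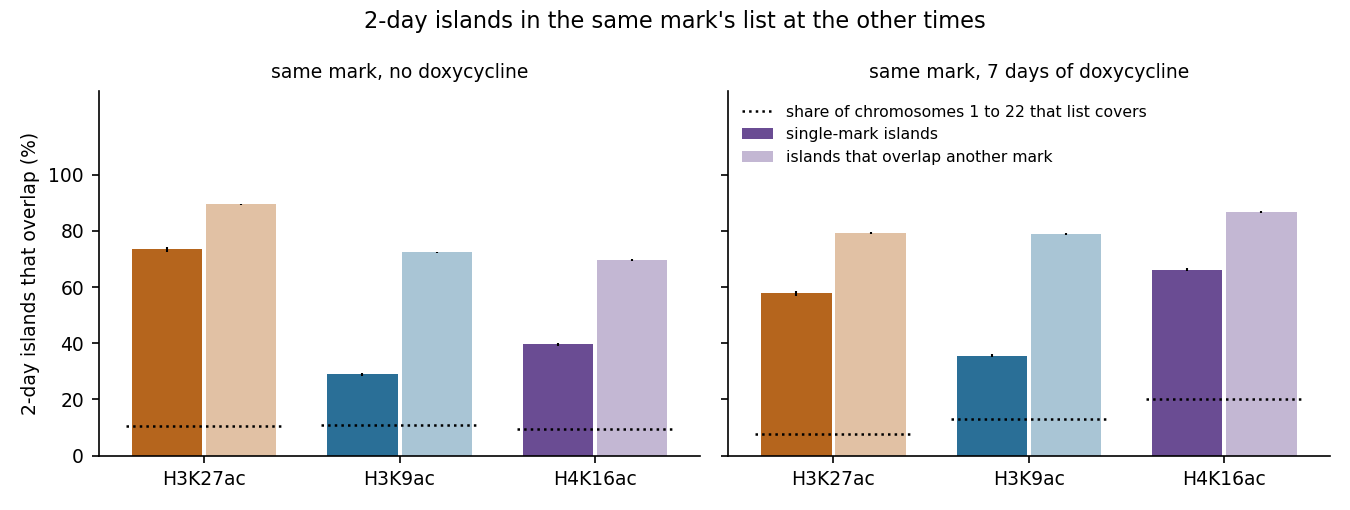
Percent of the 2-day islands of each mark that overlap an island of the same mark without doxycycline (left) and at 7 days (right); full colour, single-mark islands, pale colour, islands that overlap another mark, error bars 95% exact intervals, dotted lines the share of chromosomes 1 to 22 that the other list covers. Single-mark bars are lower than shared bars for every mark, at 28.9% against 72.3% for H3K9ac without doxycycline.

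The gap between single-mark and shared islands was also seen at like length. For islands over 2 to 4 kb, H3K27ac without doxycycline was found in 79.8% of the single-mark against 86.8% of the shared, H3K9ac in 32.4% against 71.9% and H4K16ac in 39.3% against 64.9%. With at least 100 reads, single-mark islands were found again far more often: 99.4% of 1214 H3K27ac-only islands, 64.7% of 215 H3K9ac-only and 75.9% of 701 H4K16ac-only had the same mark without doxycycline. Shared islands were not counted at that limit, so the gap there is not known.

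Few stayed with 1 mark at all times. The same mark at both other times and no other mark at any time was found for 1661 H3K27ac-only islands (16.3%), 341 H3K9ac-only (1.5%) and 3209 H4K16ac-only (10.5%). An H4K16ac island lay on 35.7% of the H3K9ac-only islands without doxycycline and on 55.8% at 7 days, more than had H3K9ac itself there. These shares were below those of the shared H3K9ac islands, of which 62.2% and 77.2% had H4K16ac at those times. No mark at all was listed without doxycycline on 17.3% of the H3K27ac-only islands, 44.5% of the H3K9ac-only and 47.3% of the H4K16ac-only. For islands that overlapped another mark these shares were 2.31%, 7.93% and 8.58%.

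The densest H3K27ac-only islands were above the densest of the other marks on this scale. With at least 50 reads, the highest were 31.8 scaled reads per kb for H3K27ac-only, 13 for H3K9ac-only and 10.7 for H4K16ac-only. Among shared islands the highest were 52.7, 24.5 and 14.0. The densest island of each mark that held 50 reads thus overlapped another mark.

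The first H3K27ac-only locus was chr19:55720601-55722400 in 19q13.42, 1800 bp with 180 H3K27ac reads and 2 HRP reads. An H3K9ac island lay 1800 bp away and the nearest H4K16ac island 20800 bp away. Islands touching it held 225 H3K27ac reads without doxycycline and 134 at 7 days, with 20 and 38 H3K9ac reads and no H4K16ac island at either time, so H4K16ac was missing at all times and H3K9ac was listed weakly at the others.

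The next ones also had H3K27ac at both other times and H4K16ac at neither. They lay at chr3:197242801-197244000 in 3q29 with 113 reads, chr20:58823401-58825800 in 20q13.33 with 211, chr5:95047601-95049000 in 5q15 with 120 and chr1:153462601-153464000 in 1q21.3 with 114. Each had H3K9ac islands of 30 to 43 reads without doxycycline, but at 7 days H3K9ac was listed only at the locus in 20q13.33, with 57 reads. The locus in 20q13.33 was the most isolated, with the nearest H3K9ac island 298600 bp and the nearest H4K16ac island 294800 bp away.

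By summed reads other H3K27ac-only islands led. The first was chr19:45238201-45249000 in 19q13.32, 10800 bp with 574 reads, where H3K27ac islands held 809 reads without doxycycline and 306 at 7 days and neither other mark was listed at either time. It was the 1 locus of these 5 with H3K27ac alone at every time. At 2 days an H3K9ac island lay 1400 bp from it and the nearest H4K16ac island 42400 bp. The others lay at chr21:23083201-23091600 in 21q21.1 (555 reads), chr1:202542401-202551600 in 1q32.1 (512), chr2:102676601-102683200 in 2q11.2 (508) and chr17:75246601-75253000 in 17q25.2 (471).

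The densest H3K9ac-only islands were short, and most had other marks at other times. The first, chr12:13197401-13198600 in 12p13.1, had 65 H3K9ac reads on 1200 bp and 5 HRP reads. Islands touching it without doxycycline held 97 H3K27ac reads, 96 H3K9ac reads and 37 H4K16ac reads, and at 7 days no mark was listed. H3K27ac and H4K16ac islands of its length are listed from 19 reads, so a signal under that could be there unlisted. At chr1:29111401-29112400 in 1p35.3, 53 reads on 1000 bp, H3K9ac was alone at every time, with 23 reads without doxycycline and 44 at 7 days. At 2 days an H4K16ac island lay 600 bp from it and the nearest H3K27ac island 25000 bp. The others lay at chr3:186334401-186335600 in 3q27.3, chr12:49259001-49260200 in 12q13.12 and chr8:61935201-61937000 in 8q12.2, and each had H3K27ac at both other times.

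The H3K9ac-only islands with most reads were wide and thin. They lay at chr17:41837001-41846400 in 17q21.31 (192 reads), chr1:200270401-200277800 in 1q32.1 (191), chr21:34022801-34030400 in 21q22.11 (189), chr3:71364001-71372800 in 3p13 (163) and chr3:53019601-53028400 in 3p21.1 (159). Their densities were 4.33 to 6.19 scaled reads per kb. Each had an island of another mark at both other times. At 2 days the nearest H4K16ac island lay 2200, 43000, 800, 200 and 600 bp away, in the order named. At the lengths of these 5, H3K27ac islands are listed from 89 to 121 reads and H4K16ac islands from 71 to 105. A signal under those counts could be there unlisted.

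H4K16ac-only loci were the least dense. The 5 densest held 52 to 66 reads at 9.36 to 10.7 scaled reads per kb: chr8:48975601-48977200 in 8q11.21, chr11:110098401-110100200 in 11q22.3, chr8:37631601-37633400 in 8p11.23, chr14:31839401-31841600 in 14q12 and chr5:58433601-58435400 in 5q11.2. At chr8:37631601-37633400 H4K16ac was alone at every time, with 31 reads without doxycycline and 250 at 7 days. At 2 days an H3K9ac island lay 800 bp from it and an H3K27ac island 3800 bp. At chr5:58433601-58435400 no mark was listed at either other time.

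By summed reads, H4K16ac-only islands were broad. The first, chr6:97610401-97627000 in 6q16.1, was 16600 bp with 286 reads, and H4K16ac islands touching it held 101 reads without doxycycline and 607 at 7 days. The others lay at chr14:64456801-64470800 in 14q23.2 (266 reads), chr1:200536601-200551400 in 1q32.1 (265), chr9:98688401-98705800 in 9q22.32 (260) and chr3:121490401-121504400 in 3q13.33 (239). All 5 had H4K16ac and H3K9ac at both other times and none had H3K27ac without doxycycline. At the lengths of these 5, H3K27ac islands are listed from 204 to 466 reads and H3K9ac islands from 264 to 387. A signal of either mark under that could be there unlisted.

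The marks differed in where along the chromosomes they lay. H4K16ac reached into dark Giemsa bands, which are AT-rich and poor in genes. The darkest class (gpos100) makes up 16% of the length of chromosomes 1 to 22 and held 8.24% of the bases of H3K27ac, 8.78% of those of H3K9ac and 12.6% of those of H4K16ac. It held 20.2% of the H4K16ac-only islands, against 9.61% of the shared H4K16ac islands, and 51.0% of all H4K16ac islands in it were single-mark, against 28.5% in light bands (gneg). For H3K27ac these last shares were 22.6% and 16.2%, and for H3K9ac 27.1% and 20.1%.

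The gap between marks varied from band to band, and only the most extreme bands are named here. Over the 684 bands described next, log2 of H3K27ac cover over H4K16ac cover had 5th and 95th percentiles of -1.60 and 1.27. Of 684 bands outside centromeres and variable regions, of at least 1 Mb and with 50 kb or more under some mark, chosen as a set after the values were seen, H4K16ac led most over H3K27ac at 13q21.32, where H3K27ac covered 2.49%, H3K9ac 9.36% and H4K16ac 25.4%. The same order held at 4q28.3, with 1.73% for H3K27ac, 5.23% for H3K9ac and 15.4% for H4K16ac, and at 13q21.31, 5p14.1 and 1q31.1. At 4q28.3, 301 of the 408 H4K16ac islands were single-mark. Without doxycycline H3K27ac covered 1.71% of that band, H3K9ac 5.04% and H4K16ac 6.70%, and at 7 days 1.22%, 8.79% and 28.1%, so the order of the 3 marks at 2 days held at both.

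The reverse was seen on the long arms of chromosomes 16 and 13. At 16q24.3 H3K27ac covered 11.6%, H3K9ac 4.06% and H4K16ac 0.121%, with 54 H3K27ac islands, 36 H3K9ac islands and 1 H4K16ac island. The bands 16q23.2, 16q22.3, 16q24.1 and 13q12.3 came next, the last with 6.46% for H3K27ac, 2.3% for H3K9ac and 0.588% for H4K16ac. The arm 13q thus held bands led by H3K27ac as well as the H4K16ac-led 13q21.31 and 13q21.32. The band 16q24.1 had the most H3K27ac-only islands per Mb of the bands, 49 of its 92. HRP reads per kb of H3K27ac island were 1.08 at 16q24.3, 1.27 at 16q24.1 and 1.44 at 13q12.3, against 2.13 over the list. The part of the lower control reads in the result was not tested.

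By chromosome arm the widest gap was on chromosome 19, among the most gene-rich chromosomes. On 19p H3K27ac covered 11%, H3K9ac 7.12% and H4K16ac 2.70%, and on 19q 10.5%, 8.57% and 4.79%. On 16p the order was the same, with 7.45%, 6.07% and 3.94%. On 4q it was the reverse, with 6.57% for H3K27ac, 10.2% for H3K9ac and 13.5% for H4K16ac. These orders held on 19p, 19q and 16p without doxycycline and on 4q at 7 days, but not at each other time. On 19p at 7 days H3K27ac covered 12.8%, H3K9ac 7.68% and H4K16ac 9.27%. On 19q the cover was then 11.6%, 8.99% and 11.9%. On 16p at 7 days H3K27ac covered 7.47%, H3K9ac 6.69% and H4K16ac 9.85%. On 4q without doxycycline the cover was 7.54%, 10.3% and 8.75%. HRP reads per kb of H4K16ac island were 1.53 on 19p, 1.69 on 19q, 1.42 on 16p and 1.85 on 4q, against 1.89 over the list.

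**Figure D5:**
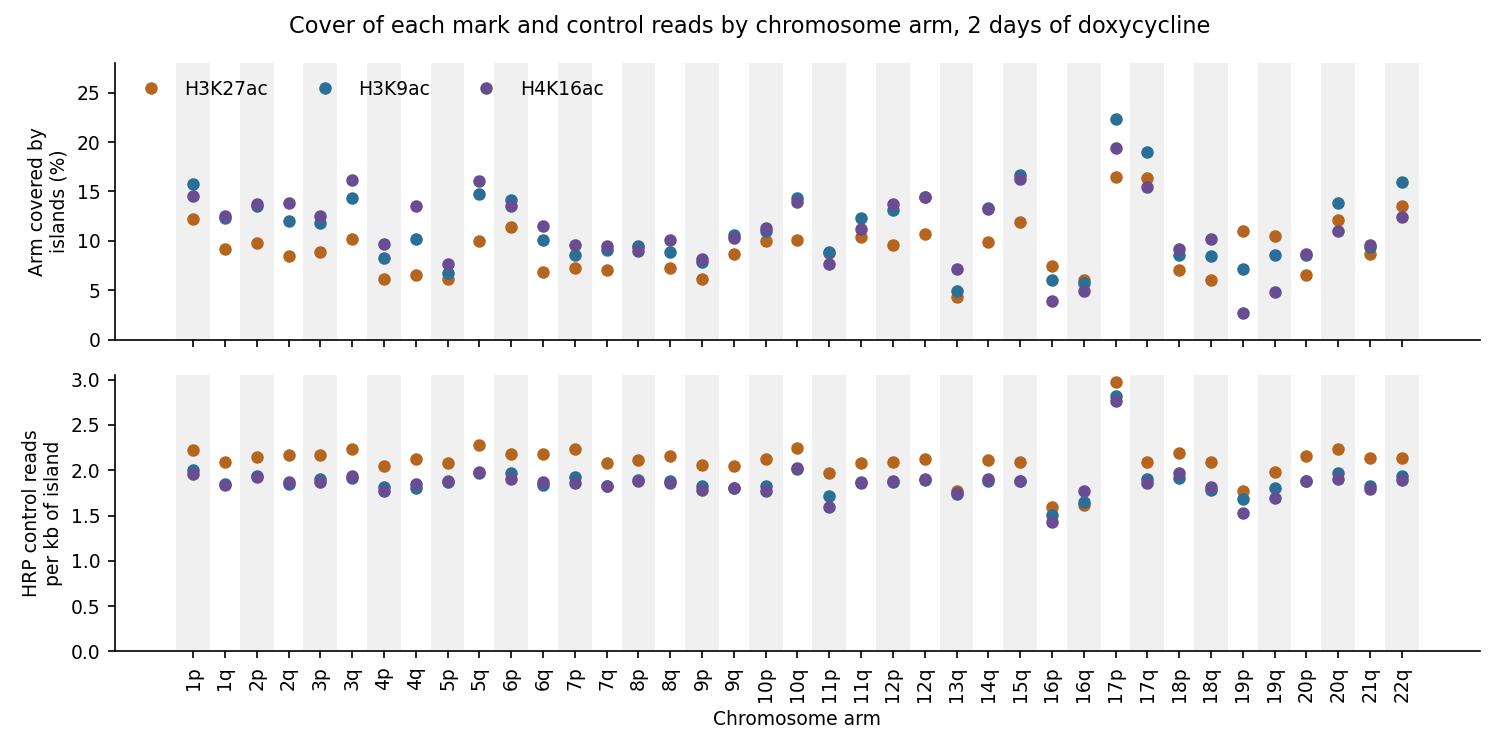
Percent of each chromosome arm covered by islands of each mark at 2 days (top) and HRP control reads per kb of those islands (bottom), for the 39 arms with islands. H3K27ac leads H4K16ac most on 19p (11% against 2.70%), H3K27ac trails H4K16ac most on 4q (6.57% against 13.5%), and cover and control reads per kb are highest on 17p for all 3 marks.

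On 13q the cover was 4.30% for H3K27ac and 4.89% for H3K9ac, the lowest of the 39 arms for both, and 7.17% for H4K16ac, which covered less of 19p, 16p, 19q and 16q. There 37.6%, 26.1% and 55.8% of the islands were single-mark, the highest share of any arm for each. HRP reads per kb of island on 13q were 1.77 for H3K27ac, 1.73 for H3K9ac and 1.75 for H4K16ac. On 17p the cover was the highest of the arms for each mark, at 16.5%, 22.4% and 19.4%, with 2.98, 2.82 and 2.76 HRP reads per kb of island. The part of the control reads in these covers was not tested.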

How the data were processed

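Island lists of 3 CUT&RUN libraries from cells induced for 2 days were compared, with those of the other 6 antibody libraries for recurrence. Per the file headers and the submitters' processing notes (cutadapt, Bowtie2 2.3.5.1, Picard, SICER, hg19), the authors deposited for each island its antibody and HRP read counts, a p-value with its false discovery rate, a log2 fold over HRP and a score that is a fixed multiple of that fold; their settings were not found in the labels. The authors' p-value was recomputed as a Poisson tail of the count over the scaled HRP count. A library's size relative to HRP was read from the log2 fold, in which HRP counts of 0 stand as 0.25 read. Scaled reads per kb are counts over that size and over the island's kb. Coordinates are 1-based on hg19; 2418 islands outside chromosomes 1 to 22 were left out. Overlaps were computed with Python 3.11.15, numpy 2.4.6 and pandas 2.3.3, intervals with scipy 1.17.1, after a check on simulated islands. Bands came from circlize 0.4.16 and chromosome lengths from GenomeInfoDb 1.38.1 in R 4.3.3. Named loci were, per mark, the 5 densest and the 5 with most scaled reads among single-mark islands with 50 reads, the 3 widest islands, the 5 strongest regions with all 3 marks, and per pair the 5 most extreme ratios each way. Marks, lists and rules were chosen with earlier results of these data known; the summaries by arm, band, decile and quartile were chosen after values were seen. Genes and sequences are not given, since no annotation or genome of hg19 was used here.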

Additional observations from a re-analysis of the deposited data

How the results depend on the processing

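The limits come first. With 1 library per mark, no difference here has a replicate check, and doxycycline without the mutant gene was not analysed here. The lists depend on depth and on the caller's threshold, so a missing island is not missing acetylation. Signal scaled by library size cannot show a genome-wide gain or loss, and the labels name no spike-in. No paired analysis was possible because each mark and time has 1 library. Of 155 alternative values 49 moved by less than their interval or by less than 1.5 times for a count, 104 moved further and 2 turned sign; the cause was not tested. In the order H3K27ac in H3K9ac, H3K27ac in H4K16ac, H3K9ac in H3K27ac, H3K9ac in H4K16ac, H4K16ac in H3K9ac and H4K16ac in H3K27ac, the overlapping shares were 60.4, 34.1, 43.1, 44.4, 45.1 and 27.9% where the island had to be at least 50% covered, and 79.5, 54.9, 53.2, 61.5, 67.7 and 40.2% with a mark within 1 kb. They were 49.0, 26.3, 43.3, 31, 40.2 and 29.5% for islands at least 4-fold over HRP, 53.0, 36.1, 58.2, 49.5, 49.3 and 37.6% for equal numbers of islands, and 79.0, 54.6, 52.1, 57.9, 63.7 and 41.6% with islands joined across 2 kb. With counts scaled down to the smallest library, 76.4% of H3K27ac and 62.2% of H4K16ac islands overlapped H3K9ac. At least 4-fold over HRP, regions numbered 15363 for H3K27ac alone, 17925 for H3K9ac alone, 16763 for H4K16ac alone, 10660 for H3K27ac with H3K9ac, 6580 for H3K9ac with H4K16ac and 6607 for all 3. With equal numbers they were 21993 for H3K27ac alone, 11542 for H3K9ac alone, 24117 for H4K16ac alone, 13716 for H3K27ac with H3K9ac, 10074 for H3K9ac with H4K16ac, 4144 for H3K27ac with H4K16ac and 15061 for all 3. Joined across 2 kb, H3K9ac with H4K16ac had 13855 and H3K27ac with H4K16ac 1563. Median lengths for H3K27ac, H3K9ac and H4K16ac were 3400, 2000 and 2400 bp at 4-fold and 3600, 3000 and 3400 bp when joined; H3K9ac had 2600 bp with equal numbers. Median scaled reads per kb in that order were 10.9, 5.73 and 5.49 at 4-fold, 6.49, 6.22 and 6.51 when scaled by summed island reads, where the order of the marks turned, and 6.98, 3.75 and 3.45 after subtracting HRP. H3K9ac and H4K16ac had 5.79 and 5.37 with equal numbers and 5.05 and 4.86 when joined. Median log2 ratios of H3K27ac over H3K9ac, H3K27ac over H4K16ac and H3K9ac over H4K16ac were 0.72, 0.92 and 0.024 at 4-fold, 0.68, 0.76 and 0.055 with equal numbers, 0.79, 0.93 and 0.028 when joined, 0.013, 0.057 and -0.095 when scaled by island reads, 0.91, 1.13 and 0.067 after subtracting HRP, and 0.78, 0.75 and -0.0027 between single islands that mostly coincide; the last ratio turned sign in both of the settings where it is negative. Single-mark islands of at least 50 reads numbered 10239 for H3K27ac and 3830 for H4K16ac at 4-fold, and 12116 for H3K27ac and 2514 for H3K9ac with equal numbers. With 100 reads there were 1214, 215 and 701, and with no other mark within 5 kb 1940, 1340 and 3285. The same mark was then found without doxycycline and at 7 days for 99.4 and 94.7% of the H3K27ac-only islands of 100 reads, 64.7 and 75.8% of the H3K9ac-only and 75.9 and 93.2% of the H4K16ac-only. Among those with no mark within 5 kb it was found without doxycycline for 72.5% of the H3K27ac-only, and at both times for 21.7 and 26.8% of the H3K9ac-only and 32 and 55.5% of the H4K16ac-only. Ranked by summed reads instead of density, 0 of the 5 named islands were shared for each mark.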
